A study of Caenorhabditis elegans with 12 samples.

Results

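The response of wild-type Caenorhabditis elegans (strain N2) to a short heat shock was measured by comparing 3 libraries of heated N2 (33 °C for 30 min) with 3 libraries of unheated N2 (20 °C for 30 min), which are 6 of the 12 libraries of the study. Groups were taken from the sample titles, and every gene with enough reads was compared, 15386 of the 22010 genes in the tables. Each plate received 250 animals at the L4 larval stage on fresh OP50 bacteria, and heated plates were sealed and set in a water bath while unheated plates were sealed and left at room temperature. The other 6 libraries came from a strain carrying affl-2(sy975), a mutation in the gene of a transcription elongation factor, with and without the same heat shock. They entered here through the filter on low counts, the shared estimate of the spread and 1 replicate block over all libraries, and through 1 test of whether the effect in N2 differs between the genotypes. With only the N2 libraries 14838 genes were tested, of which 1644 rose and 2023 fell. RNA came from whole animals, so that fewer cells of a type and less RNA per cell cannot be told apart in any value below.

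Heat unfolds proteins, and cells answer by making chaperones, which hold unfolding proteins in solution or refold them with energy from ATP. In animals the transcription factor HSF-1 switches on most of these genes by binding heat shock elements in their promoters, where polymerase is recruited or released within minutes. C. elegans is known for strong induction of the hsp-16 small heat shock genes and the inducible HSP70 genes in many somatic tissues.

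Poly(A) RNA was read as single reads of 50 nt, and estimated counts summed to 20.28, 18.65 and 20.76 M in heated N2 and to 22.66, 21.2 and 20.6 M in unheated N2. Values per library are CPM, a gene's counts per 1 M counts of its library after TMM scaling, and changes are log2 ratios of heated over unheated N2 from edgeR's quasi-likelihood test with standard errors. P-values are Benjamini-Hochberg adjusted over all 15386 genes, and a gene rose or fell where that value was under 0.05. Whether replicates were separate cultures is not given in the labels, and a p-value here covers no more than the spread between libraries, which may be technical. Markers of neurons, muscle, intestine, hypodermis, pharynx, germline and sperm were all read, the lowest being the pharyngeal factor gene ceh-22 at 2.13 to 2.84 CPM in heated N2 and 1.57 to 3.57 CPM in unheated N2. The adult yolk genes vit-2, vit-5 and vit-6 were read highly in these L4 animals. Their lowest values were 1567 CPM in heated N2 and 1860 CPM in unheated N2, and none of them passed. One library stood apart: unheated N2 replicate 3 held more inducible chaperone mRNA than the other 2 unheated libraries, and the chaperone values it moves most are given also without it.

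Over all genes, 1465 rose (9.52% of those tested) and 1849 fell (12% of those tested). Counts for the gene lists below are to be read against these shares. Beyond 2-fold, 581 rose (3.78%) and 603 fell (3.92%). Large changes were mostly rises, with 268 genes up and 71 down beyond 4-fold, and 152 up and 10 down beyond 8-fold. The median over all genes was −0.006. Scaling by library size alone shifted that median to −0.188 and gave 911 higher and 3487 lower, so that rises made up 20.7% of the calls in place of 44.2%. N2 libraries of the same replicate number varied together (correlations of 0.25, 0.27 and 0.32), and the main fit does not use this pairing. A fit of the 6 N2 libraries with the replicate number as a block, called the blocked fit below, gave 2726 higher and 3042 lower. In neither was a gene called in the opposite direction, and 1402 of the 1465 and 1820 of the 1849 were called in the blocked fit too. At the threshold, C15A11.2 and T14G8.4 lay just inside (adjusted p = 0.0499 each) and rpc-1 and ints-1 just outside (0.05 each).

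**Figure D1:**
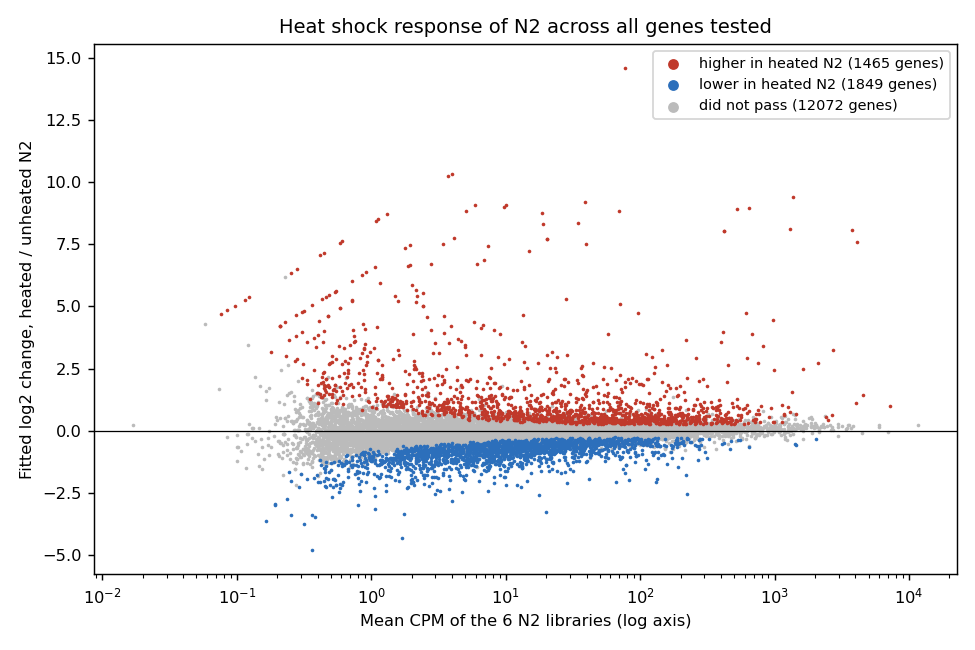
Each point is 1 of the 15386 genes tested; the x axis gives the mean CPM of the 6 N2 libraries on a log axis and the y axis the fitted log2 change of heated over unheated N2. The 1465 genes that rose reach far higher changes than the 1849 that fell, and many of the highest lie at low CPM.

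Genes that rose beyond 2-fold held 7.82, 7.97 and 8.18% of all counts in heated N2, against 1.77, 1.86 and 1.84% in unheated N2. The 6 hsp-16 genes, hsp-70, F44E5.4 and F44E5.5 together summed to 24107, 23369 and 27703 CPM in heated N2 and 45.2, 35.3 and 204 CPM in unheated N2. Per length, as TPM, these 9 genes made up 3.33 ± 0.0734% of transcripts in heated N2 and 0.0125 ± 0.0137% in unheated N2 (SD, n = 3 each). Singly the unheated libraries stood at 0.00587, 0.00346 and 0.0283%, the last being replicate 3. The TPM share depends on the effective lengths in the tables, which are 299 nt under the transcript length and so weigh short transcripts such as those of hsp-16 heavily. The other 573 genes that rose beyond 2-fold held 3.67 ± 0.0497% of TPM in heated N2 and 1.02 ± 0.0211% in unheated N2. The 603 genes that fell beyond 2-fold held 0.276 ± 0.00443% of TPM in heated N2 and 0.777 ± 0.0279% in unheated N2.

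The small heat shock proteins of the hsp-16 family are holdases that bind unfolding proteins without ATP. Their summed mRNA stood at 6547, 6077 and 7270 CPM in heated N2 and 9.93, 3.9 and 48.7 CPM in unheated N2, and the groups did not overlap. As 1 sum it rose by a log2 change of 8.32 (adjusted p = 0.000287) and by 9.90 without unheated N2 replicate 3. hsp-16.2 had 1019, 938 and 1168 CPM in heated N2 and 1.03, 0.423 and 5.07 CPM in unheated N2. All 3 heated libraries were high, and among the unheated ones replicate 3 was highest. hsp-16.2 and hsp-16.41 lie head to head on chromosome V of build WBcel235 with 220 bases between them, and hsp-16.49 and hsp-16.11 with 310 bases between them. All 5 tested members rose, with a list median of 8.10 (9.73 without unheated N2 replicate 3), and hsp-16.1 was listed at 0 in all libraries. The family holds near-identical copies whose reads are divided by an estimate, so the sum is surer than its parts. Among 7 tested small heat shock genes outside hsp-16, 3 rose, of which hsp-17 (1.27 ± 0.24) and hsp-43 (0.91 ± 0.13) did so whichever library was left out.

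HSP70 chaperones refold proteins by cycles of ATP binding, and 7 of 12 HSP70 and HSP110 genes rose while 1 fell (list median 1.02). The inducible hsp-70 had 2553, 2610 and 3069 CPM in heated N2 and 3.18, 2.02 and 7.04 CPM in unheated N2, a log2 change of 9.4 ± 0.45 (10.04 without unheated N2 replicate 3). The heated libraries lay close together and far above all unheated ones. F44E5.4 and F44E5.5, HSP70 genes that stand head to head 350 bases apart and share reads as near-identical copies, summed to 15007, 14681 and 17365 CPM in heated N2 and 32.1, 29.4 and 149 CPM in unheated N2. Without unheated N2 replicate 3 their changes were 9.83 (F44E5.4, 8.07 ± 1.11 with it) and 8.50 (F44E5.5, 7.61 ± 0.55 with it). The nucleotide exchange factor hsp-110 stood at 4788, 4667 and 5234 CPM in heated N2 and 515, 493 and 524 CPM in unheated N2 (3.26 ± 0.11). hsp-4, the BiP of the endoplasmic reticulum, had 2474, 2428 and 3347 CPM in heated N2 and 472, 410 and 576 CPM in unheated N2 (2.50 ± 0.15). The second BiP gene, hsp-3, had 1590 ± 142 CPM in heated N2 and 1494 ± 51.1 CPM in unheated N2 and did not pass (0.09 ± 0.12, adjusted p = 0.662, −0.09 with library size alone). The member that fell was F11F1.1, an HSP70 family gene, at 5.04, 3.76 and 3.47 CPM in heated N2 and 11.4, 9.3 and 9.5 CPM in unheated N2 (−1.3 ± 0.20).

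Cochaperones and BAG-domain proteins steer the cycles of HSP90 and HSP70. Of 16 genes listed as HSP90, cochaperone and BAG genes 11 rose and 1 fell (list median 0.56). The fall, of trap-1, was lost when any 1 of 4 libraries was left out. The trap-1 transcript has 1112 nt against 2506 nt for hsp-90, so its place in this list is unsure. The BAG-domain gene unc-23 had 703, 653 and 863 CPM in heated N2 and 63.9, 60.5 and 63.8 CPM in unheated N2 (3.56 ± 0.14), and bag-1 rose by 2.03 ± 0.10. hsp-90 itself had 6414, 6310 and 7133 CPM in heated N2 and 2684, 2248 and 2478 CPM in unheated N2 (1.42 ± 0.11). J-domain proteins hand clients to HSP70. Of 29 dnj genes 3 rose (10.3%, beside 9.52% of all genes, and 5 in the blocked fit). Only 1 fell (3.45%, beside 12% of all genes), a call lost whichever library was left out. The risen genes were dnj-13 (2.73 ± 0.10), dnj-12 (1.1 ± 0.09) and dnj-19 (0.51 ± 0.09). The rise in dnj-13 covered 1279, 1218 and 1455 CPM in heated N2 and 193, 192 and 210 CPM in unheated N2, while the list median was 0.10 (−0.08 with library size alone). Of 14 genes of the CCT chaperonin and of prefoldin, which fold actin and tubulin, 8 rose (3 with library size alone), with cct-6 at 0.52 ± 0.09.

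**Figure D2:**
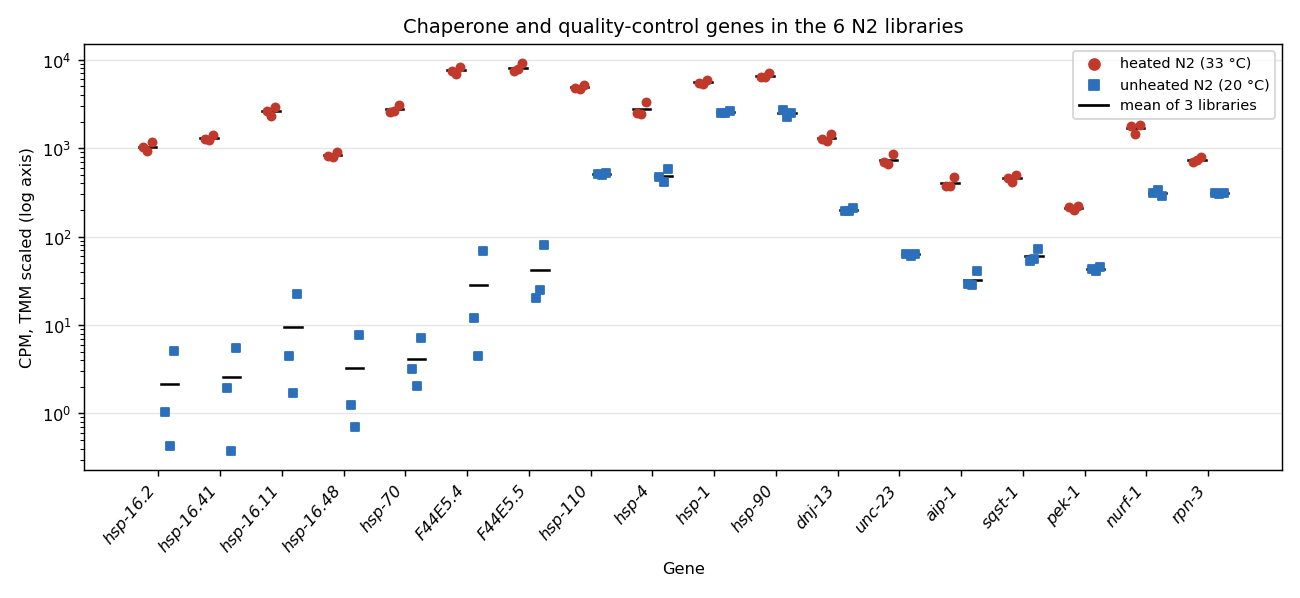
Points give the CPM of 18 chaperone and protein quality-control genes in each of the 3 heated (circles, left) and 3 unheated (squares, right) N2 libraries on a log axis, and lines the means. No gene overlaps between groups (19.9% of all tested genes lay higher without overlap), and the highest unheated point of the hsp-16 and inducible HSP70 genes is replicate 3. Many of these genes were chosen by their values, some for not overlapping, so the lack of overlap is a description.

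Damaged proteins that cannot be refolded are tagged with ubiquitin for the proteasome or taken up by autophagy. Of 23 ubiquitin and quality-control genes 6 rose, or 26.1% (list median 0.12, −0.07 with library size alone). aip-1, an AN1 zinc finger proteasome adaptor, stood at 374, 373 and 475 CPM in heated N2 and 29.2, 28 and 40.6 CPM in unheated N2 (3.64 ± 0.16). The polyubiquitin gene ubq-1 had 1596, 1588 and 1783 CPM in heated N2 and 861, 846 and 824 CPM in unheated N2 (0.97 ± 0.10), and the ubiquitin-activating enzyme uba-1 rose by 0.67 ± 0.09. Of 33 proteasome subunit genes 1 rose (5 in the blocked fit): rpn-3, a lid subunit, at 697, 731 and 786 CPM in heated N2 and 311, 300 and 313 CPM in unheated N2 (1.26 ± 0.09). rpn-3 lies head to head with hsp-110, with 443 bases between them. Of 29 autophagy genes 11 rose and 2 fell (list median 0.20), and both falls were lost on leaving out a library. With library size alone 6 rose and 4 fell, and the median was 0.02. The cargo receptor sqst-1 had 464, 418 and 496 CPM in heated N2 and 52.3, 56.3 and 71.5 CPM in unheated N2 (2.94 ± 0.15). Genes for earlier steps rose less, namely atg-2 (1.1 ± 0.11), atg-7 (0.82 ± 0.09), an E1-like enzyme of autophagy, and bec-1 (0.81 ± 0.10), a subunit of its lipid kinase complex.

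Of 25 transcription factor genes of stress responses 11 rose (44%, beside 9.52% of all genes) and 2 fell (5 in the blocked fit, 1 when any 1 of 3 libraries was left out). Under scaling by library size alone 8 rose and 7 fell, and the list median of 0.13 became −0.05. zip-10, a bZIP factor, had 35.1, 29.5 and 43.8 CPM in heated N2 and 3.36, 3.05 and 6.84 CPM in unheated N2 (3.04 ± 0.30). The zinc finger factor pqm-1 had 84.3, 87.8 and 93.4 CPM in heated N2 and 30.7, 20.1 and 21.6 CPM in unheated N2 (1.87 ± 0.16). atf-7, a CREB/ATF factor of immunity, rose by 1.15 ± 0.10 and skn-1, the Nrf factor of oxidant defence, by 0.49 ± 0.10. The lipid-linked repressor mxl-3 fell (−0.70 ± 0.13). The gene of HSF-1 itself did not pass, with 66.7, 65.5 and 52.7 CPM in heated N2 and 65.9, 69.5 and 62.5 CPM in unheated N2 (−0.10 ± 0.12, adjusted p = 0.617, and 0.01 without heated N2 replicate 3). Of 24 genes of folding and stress in the endoplasmic reticulum 4 rose (16.7%, beside 9.52% of all genes) and 2 fell (8.33%, beside 12%). The falls numbered 1 when any 1 library was left out and 5 in the blocked fit. Beside hsp-4 the rises included the stress kinase pek-1, at 215, 200 and 222 CPM in heated N2 and 42.5, 40.9 and 45.1 CPM in unheated N2 (2.31 ± 0.09) with no overlap, and the transcription factor xbp-1 (0.68 ± 0.12). The translocon subunit gene sec-61.A fell, with 1136, 1086 and 1197 CPM in heated N2 and 1682, 1686 and 1670 CPM in unheated N2 (−0.56 ± 0.10).

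Genes of detoxification went both ways. Glutathione transferases conjugate electrophiles, and 6 of 38 tested rose (15.8%, beside 9.52% of all genes) while 1 fell (2.63%, beside 12%). The falls numbered 0 when any 1 of 3 libraries was left out and 7 in the blocked fit, and the list median was −0.18. gst-36 had 255, 272 and 301 CPM in heated N2 and 43, 39.7 and 48 CPM in unheated N2 (2.66 ± 0.14), and gst-1 (1.80 ± 0.15), gst-20 (1.44 ± 0.15) and gst-7 (1.08 ± 0.12) followed. UDP-glucuronosyltransferases attach sugars to small molecules, and of 62 tested 24 fell (38.7%) and 11 rose (17.7%), with a median of −0.35. The falls numbered 15 without unheated N2 replicate 1 and 14 without heated N2 replicate 2. ugt-13 had 106, 107 and 111 CPM in heated N2 and 6.04, 9.07 and 6.64 CPM in unheated N2 (3.89 ± 0.16), and its upstream neighbour ugt-14, 579 bases away on the same strand, rose by 4.59 ± 0.37. ugt-16 went the other way, at 3.64, 4.06 and 4.72 CPM in heated N2 and 15.2, 15.2 and 15.3 CPM in unheated N2 (−1.88 ± 0.20), as did ugt-48 (−1.63 ± 0.14), ugt-26 (−1.25 ± 0.15) and ugt-22 (−1.12 ± 0.13). Of 59 cytochrome P450 genes 11 fell (18.6%, beside 12% of all genes) and 3 rose (5.08%, beside 9.52%). The blocked fit gave 18 and 3, and cyp-35A4 stood at −1.52 ± 0.21 and cyp-36A1 at 1.65 ± 0.17. Among 18 metal response genes 5 rose and 3 fell (5 falls without heated N2 replicate 3, 8 in the blocked fit), including the cadmium-responsive cdr-4 (2.07 ± 0.20) and the zinc transporter ttm-1 (1.02 ± 0.13), while the metallothionein gene mtl-2 fell (−0.70 ± 0.16). Of 15 hypoxia genes 4 fell (26.7%, beside 12% of all genes, and 7 in the blocked fit) and 1 rose (6.67%, beside 9.52%). The regulator of HIF-1 rhy-1 fell, at 5.27, 3.88 and 5.69 CPM in heated N2 and 14.3, 14.9 and 17 CPM in unheated N2 (−1.64 ± 0.16), and so did the prolyl hydroxylase egl-9 (−0.62 ± 0.12). Of 17 osmotic stress genes 3 rose (17.6%, beside 9.52% of all genes) and 1 fell (5.88%, beside 12%), or 8 and 5 in the blocked fit. The rises included gpdh-1, a glycerol-3-phosphate dehydrogenase (0.96 ± 0.16), and osm-11 (0.95 ± 0.14).

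Nuclear hormone receptors, ligand-regulated transcription factors that form a very large family in C. elegans, held the highest share of falls of all lists with 20 or more genes tested. Of 207 tested genes 90 fell (43.5%) and 15 rose (7.25%), 36 of the falls beyond 2-fold, and the median was −0.51 against −0.006 over all genes. Falls numbered 70 to 76 when 1 library was left out. nhr-114, an HNF4-like receptor, had 54.2, 47.7 and 47.8 CPM in heated N2 and 202, 235 and 198 CPM in unheated N2 (−2.09 ± 0.14). nhr-13 had 2.24, 1.85 and 1.93 CPM in heated N2 and 9.26, 7.52 and 6.45 CPM in unheated N2 (−1.94 ± 0.18). All heated libraries lay below all unheated ones for both genes. nhr-4 (−1.4 ± 0.14) and nhr-34 (−1.25 ± 0.14) fell too, with no overlap between the groups. Against them, nhr-17 had 34.8, 34.6 and 32 CPM in heated N2 and 7.83, 7.85 and 8.12 CPM in unheated N2 (2.09 ± 0.14), and nhr-3 rose by 1.5 ± 0.18. nhr-241 had 1 read in all unheated N2 libraries together and 14.4, 12.4 and 8.53 CPM in heated N2. Another 81 receptor genes had too few reads to test.

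Of 133 tested receptor genes for transmitters and neuropeptides, 34 fell (25.6%) and 2 rose, with 16 falls beyond 2-fold and a median of −0.45, and falls numbered 28 to 31 without 1 library, 59 with library size alone and 47 in the blocked fit, which also gave 6 rises. The muscarinic acetylcholine receptor gar-2 had 4.2, 4.84 and 3.3 CPM in heated N2 and 10.3, 12.4 and 10.9 CPM in unheated N2 (−1.44 ± 0.16). The GABA-B receptor subunit gbb-2 had 12.4 ± 0.797 CPM in heated N2 and 25.9 ± 1.52 CPM in unheated N2 (SD, n = 3 each, log2 change −1.06 ± 0.14). Neither gene overlapped between heated and unheated libraries. lgc-55, a tyramine-gated chloride channel, stood at 1.07, 0.837 and 1.08 CPM in heated N2 and 4.65, 6.11 and 5.71 CPM in unheated N2 (−2.45 ± 0.23), and the nicotinic subunit acr-15 at −1.63 ± 0.18. The octopamine receptor ser-3 rose (0.73 ± 0.14). Of 40 synaptic and general neuronal genes 14 fell, 8 without unheated N2 replicate 2 and 9 without heated N2 replicate 1, among them unc-18, a regulator of vesicle fusion, at 44.4, 41 and 46.5 CPM in heated N2 and 78, 81 and 76.9 CPM in unheated N2 (−0.84 ± 0.09). Of the 4 fixed neuronal markers, rab-3 and snt-1 fell, while unc-13 had 87.4 ± 4.06 CPM in heated N2 and 67.2 ± 6.54 CPM in unheated N2 and the prohormone convertase egl-3 142 ± 7.22 CPM in heated N2 and 144 ± 23.4 CPM in unheated N2. The rise of unc-13 (0.38 ± 0.10) was lost with library size alone and without unheated N2 replicate 3 or heated N2 replicate 1. Neuropeptide and insulin-like genes fell in 9 of 106 cases (8.49%, beside 12% of all genes), 4 or 5 when any 1 of 4 libraries was left out and 15 in the blocked fit. Of 15 genes listed for the thermosensory neuron AFD 12 did not pass. In this list 2 genes fell (13.3%, beside 12% of all genes) and 1 rose (6.67%, beside 9.52%). The calcium-dependent kinase cmk-1 (−1.11 ± 0.21) and the homeobox gene ceh-14 (−0.93 ± 0.17) fell, and the phosphodiesterase pde-2 rose (0.72 ± 0.10).

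**Figure D3:**
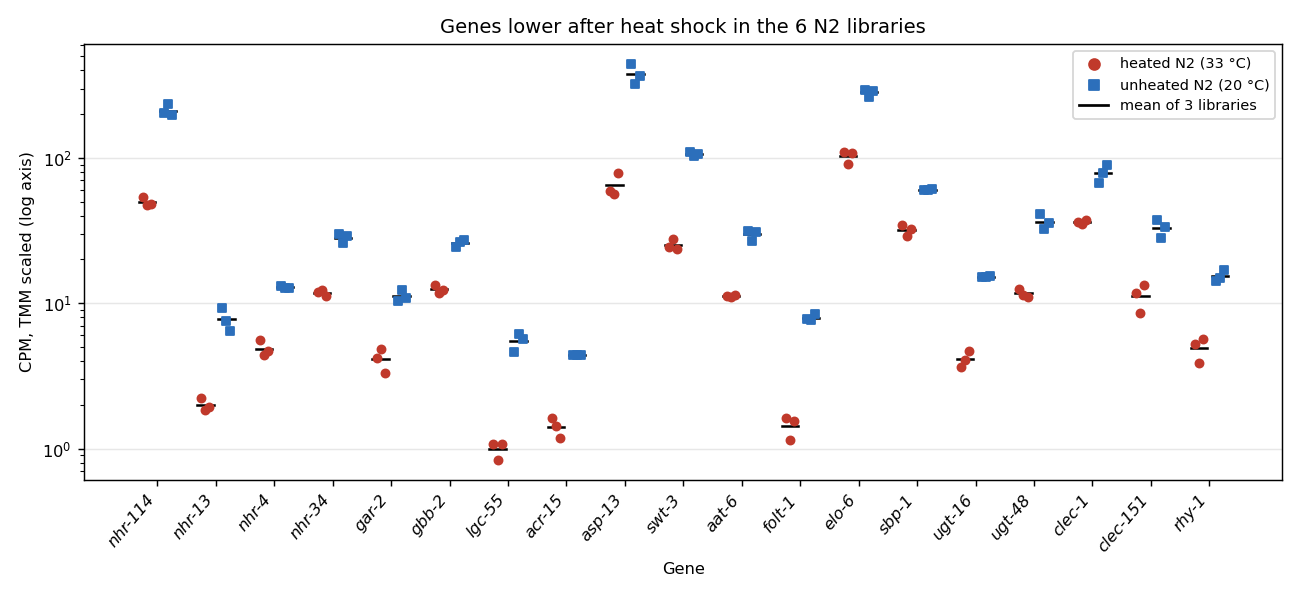
Points give the CPM of 19 genes that fell in each of the 3 heated (circles, left) and 3 unheated (squares, right) N2 libraries on a log axis, and lines the means. The groups do not overlap for any of them (21.2% of all tested genes lay lower without overlap). The genes were chosen by their values, some for not overlapping, so the lack of overlap is a description.

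Genes of uptake and metabolism in the intestine, the main digestive and fat-storing tissue, fell in 11 of 37 cases (29.7%, beside 12% of all genes). In this list 2 rose (5.41%, beside 9.52%), and the median was −0.21. The falls numbered 7 without unheated N2 replicate 1 and 20 in the blocked fit. The aspartyl protease asp-13 had 59.6, 56.5 and 78.8 CPM in heated N2 and 444, 322 and 368 CPM in unheated N2 (−2.54 ± 0.17). The sugar transporter swt-3 had 24.2, 27.7 and 23.7 CPM in heated N2 and 110, 103 and 107 CPM in unheated N2 (−2.08 ± 0.18), with every heated library lower. The amino acid transporter aat-6 had 11.2, 11.1 and 11.3 CPM in heated N2 and 31.5, 26.6 and 31.1 CPM in unheated N2 (−1.41 ± 0.12). The folate transporter folt-1 fell by 2.46 on the log2 scale. Of 4 intestinal markers pept-1, a peptide transporter, fell (−1.35 ± 0.13), and the fall of the regulator elt-2 (−0.53 ± 0.14) was lost when any 1 of 3 libraries was left out. The other two did not pass, ges-1 at −0.35 ± 0.17 and act-5 at −0.23 ± 0.14. Fatty acid genes fell in 28 of 106 cases (26.4%) and rose in 9 (median −0.13), with 16 falls without unheated N2 replicate 1, 17 without heated N2 replicate 2, and 16 rises in the blocked fit. The elongase elo-6 had 109, 90.6 and 108 CPM in heated N2 and 293, 264 and 289 CPM in unheated N2 (−1.46 ± 0.18), and the acyl-CoA oxidase acox-3 (−1.06 ± 0.12), the sterol-regulated factor sbp-1 (−0.92 ± 0.10) and the acyl-CoA synthetase acs-14 (−0.90 ± 0.12) fell with it. Risen members were icl-1, the glyoxylate cycle enzyme that turns fat toward sugar, at 1999, 1870 and 2197 CPM in heated N2 and 668, 656 and 754 CPM in unheated N2 (1.55 ± 0.13), and the carnitine palmitoyltransferases cpt-4 (1.23 ± 0.16) and cpt-1 (0.76 ± 0.12), which carry fatty acids into mitochondria.

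C-type lectins, secreted proteins often linked to immunity, fell in 35 of 130 tested cases (26.9%) and rose in 8 (median −0.36), with 23, 20 and 22 falls without unheated N2 replicate 1, heated N2 replicate 1 and heated N2 replicate 2. clec-1 had 36.3, 35 and 37.6 CPM in heated N2 and 67.1, 78.9 and 88.9 CPM in unheated N2 (−1.11 ± 0.13). F-box genes of the fbxa family, adaptors of ubiquitin ligases, fell in 29 of 147 cases (19.7%, beside 12% of all genes). Their rises numbered 15 (10.2%, beside 9.52%), and 9 without heated N2 replicate 3. fbxa-180 had 0.561, 1.25 and 1.08 CPM in heated N2 and 7.56, 5.97 and 7.33 CPM in unheated N2 (−2.85 ± 0.27). Of 22 pals genes 6 fell, including pals-25 (−1.58 ± 0.34), an activator of the intracellular pathogen response, and pals-23 (−1.07 ± 0.17). The Piwi-family gene prg-2 was among the genes that lost most CPM, at 121, 99.9 and 74.6 CPM in heated N2 and 370, 368 and 290 CPM in unheated N2 (−1.80 ± 0.19), though reads it shares with the closely similar prg-1 are divided by an estimate. The lowest change named was that of the astacin protease nas-27, at 3.42, 2.39 and 5.35 CPM in heated N2 and 33.1, 27.2 and 47.3 CPM in unheated N2 (−3.26 ± 0.40).

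**Figure D4:**
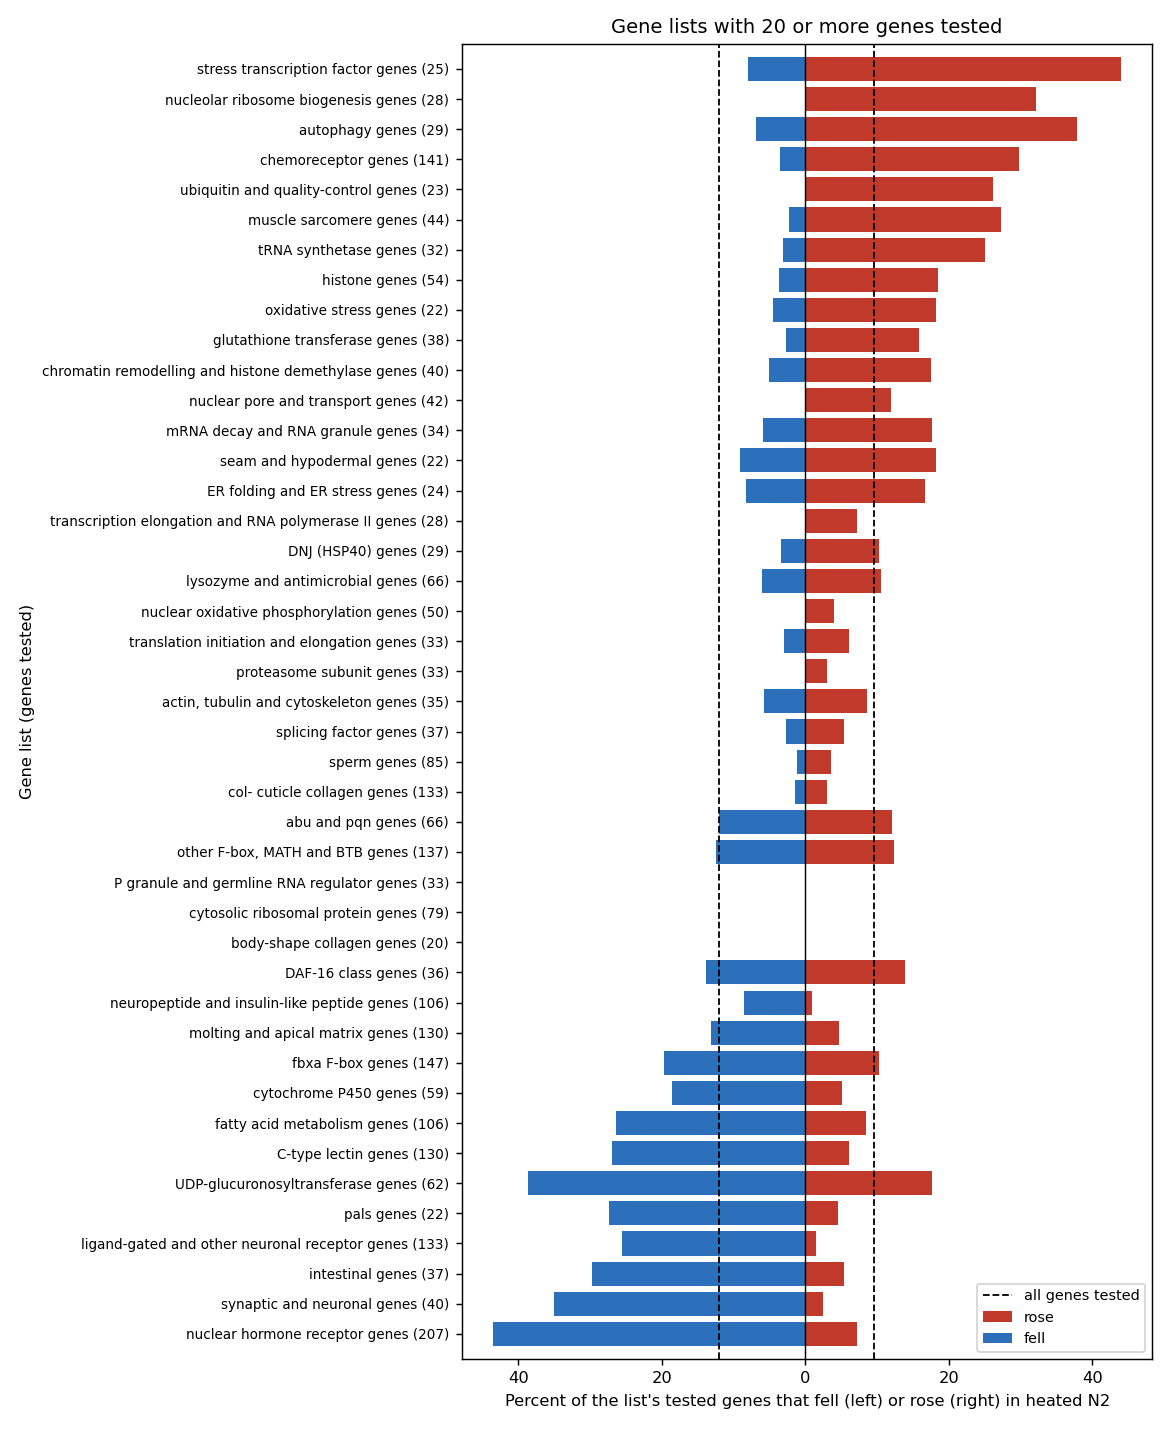
Bars give the percent of each list's tested genes that rose (right) or fell (left) in heated N2, with dashed lines at the shares over all genes, 9.52% and 12%. Among lists with 20 or more genes tested, stress regulators (44%), autophagy genes (37.9%) and nucleolar genes (32.1%) reach furthest right, and nuclear hormone receptor (43.5%), UDP-glucuronosyltransferase (38.7%) and synaptic genes (35%) furthest left.

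Chromatin and histone genes held several strong rises. nurf-1, the large subunit of the NURF nucleosome remodeller, had 1793, 1438 and 1804 CPM in heated N2 and 310, 335 and 289 CPM in unheated N2 (2.43 ± 0.12). The demethylase-family gene jmjd-3.3 had 6.45, 7.11 and 6.03 CPM in heated N2 and 2.28, 2.54 and 1.28 CPM in unheated N2 (1.68 ± 0.21), and lsd-1, another demethylase gene, fell (−1.15 ± 0.26). In all, 7 of 40 chromatin genes rose (17.5%, beside 9.52% of all genes) and 2 fell (5%, beside 12%). The rises numbered 4 without unheated N2 replicate 3, heated N2 replicate 1 or heated N2 replicate 2 and 18 in the blocked fit. Of 54 tested histone genes 10 rose (18.5%, beside 9.52% of all genes) and 2 fell (3.7%, beside 12%). The blocked fit gave 16 and 5, and falls numbered 0 or 1 when any 1 library was left out. The rises were led by his-1 (3.81 ± 0.42), his-38 (1.85 ± 0.23), his-41 (1.34 ± 0.16) and his-35 (0.91 ± 0.10). Many histone mRNAs carry no poly(A) tail and many histone genes are near-identical, so these libraries read them in part and divide their reads. his-41 had 85.7, 81.3 and 115 CPM in heated N2 and 33.6, 38.3 and 39.9 CPM in unheated N2.

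Genes of ribosomes and of gene expression mostly changed by small amounts. An exception was affl-1, which rose by 4.64 (6.44 without unheated N2 replicate 1). It was 1 of 2 genes that rose among 28 of transcription elongation and RNA polymerase II (7.14%, beside 9.52% of all genes). The blocked fit gave 9 rises there. In edgeR's test 0 of 79 cytosolic ribosomal protein genes passed, with 1 at an unadjusted p under 0.05, 0 in DESeq2 and 3 in the blocked fit, and their changes spanned −0.12 to 0.24. Of 28 nucleolar ribosome biogenesis genes 9 rose (2 with library size alone, 5 without unheated N2 replicate 2 or heated N2 replicate 1, 18 in the blocked fit), by up to 0.62 ± 0.13 for rpoa-1, a subunit of RNA polymerase I. Of 32 tRNA synthetase genes 8 rose, 1 with library size alone, 2 to 4 when any 1 of 4 libraries was left out and 15 in the blocked fit. The mRNA export receptor nxf-1 rose (0.76 ± 0.10), among 5 of 42 nuclear transport genes (1 with library size alone, 2 or 3 when any 1 of 5 libraries was left out). The splicing factor uaf-2 rose by 0.58 ± 0.09, among 2 of 37 splicing genes, or 10 in the blocked fit. P granule and germline RNA regulators gave 0 of 33 in edgeR, with 8 at an unadjusted p under 0.05. DESeq2 called 1 higher and 3 lower, and the blocked fit 9 and 7. Of 85 sperm genes 3 rose and 1 fell, against 27 falls both with library size alone and in the blocked fit.

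Muscle genes rose in 12 of 44 cases (27.3%, 19 in the blocked fit, 7 with library size alone), and the list median of 0.18 was −0.01 with library size alone. The myosin heavy chain unc-54 had 10121, 9769 and 9129 CPM in heated N2 and 3840, 5968 and 4885 CPM in unheated N2 (0.98 ± 0.16). The giant proteins unc-22 (1.04 ± 0.19) and unc-89 (1.00 ± 0.18) and the myosin myo-3 (0.92 ± 0.13) rose similarly, and the pharyngeal myosin myo-2 rose by 0.64 ± 0.14. Transcript length moved with this group: unc-22 and unc-89 have transcripts of 22558 and 24894 nt and unc-54 of 6295 nt. Over all genes, 22.3% of those with transcripts over 4000 nt rose and 10.9% fell, against 5.54% and 3.73% of those under 500 nt. Between 2000 and 4000 nt 12.9% rose and 15.7% fell. The muscle marker unc-15, with 3413 nt, rose by 0.41 ± 0.14, near the threshold in edgeR's test (adjusted p = 0.0447). The muscle marker mlc-3, with 2131 nt, stood at 1527 ± 160 CPM in heated N2 and 1388 ± 76.3 CPM in unheated N2 and did not pass (0.14 ± 0.13). The part of transcript length in these rises was not tested.

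How many cuticle and molting genes passed depended on the fit. Of 133 col collagens 4 rose and 2 fell, against 12 and 3 with only the N2 libraries, 11 and 2 in DESeq2, and 46 and 15 in the blocked fit. Body-shape collagens gave 0 of 20 in edgeR, with 2 at an unadjusted p under 0.05, 0 in DESeq2, 4 higher and 1 lower with only the N2 libraries, and 6 higher and 2 lower in the blocked fit. The molt-cycle collagen dpy-7 had 24.6, 44.6 and 63.4 CPM in heated N2 and 12.9, 74.6 and 18.8 CPM in unheated N2, so that its spread within a group exceeded the difference between groups. Of 130 molting and apical matrix genes 17 fell (13.1%, beside 12% of all genes) and 6 rose (4.62%, beside 9.52%). The falls numbered 10 without heated N2 replicate 2. Falls and rises numbered 22 and 10 with only the N2 libraries and 33 and 19 in the blocked fit. The kinase nekl-2 (1.46 ± 0.13) and the patched-related ptr-22 (3.03 ± 0.31) were among those that rose.

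Many of the strongest rises began from almost no reads. Of the 152 genes that rose beyond 8-fold (0.988% of those tested), 121 (79.6%) lay under 1 CPM in unheated N2, against 10.9% of all genes tested, and 17 had no read in any unheated N2 library. F59H6.5, for which the annotation gives no position, had 156, 144 and 161 CPM in heated N2 and 0 reads in unheated N2, at least 1089-fold higher with a floor of 3 counts per library. sri-39, a chemoreceptor gene, had 7.12, 8.78 and 7.96 CPM in heated N2 and 0 reads in unheated N2, at least 56.4-fold higher. R11A5.3 stood at 142, 123 and 150 CPM in heated N2 and 0.134, 0.47 and 0.295 CPM in unheated N2 (8.83 ± 0.25). dct-10, annotated as a pseudogene in RefSeq, had 68.9, 100 and 62.9 CPM in heated N2 and 0.0447, 0.235 and 0.0984 CPM in unheated N2 (9.20 ± 0.34, 9.98 without unheated N2 replicate 2). Y38H6C.8 had 38.8, 38.3 and 33.9 CPM in heated N2 and 0.0447, 0.188 and 0 CPM in unheated N2 (8.78 ± 0.35, 10.29 without unheated N2 replicate 2). A gene so low without heat is tested only where heated libraries read it, so counts of such genes are a description.

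Chemoreceptors are G protein-coupled receptors known mostly from sensory neurons. Of 1685 members 141 had enough reads to test, 42 of those rose and 5 fell, and 38 rose beyond 2-fold. The falls numbered 15 with library size alone, 11 in the blocked fit and 3 without unheated or heated N2 replicate 2. The other 1544 were not tested, so the 42 are no share of the family, and the list median of 0.15 was −0.04 with library size alone. srh-70 was already read without heat, with 24.6, 26.5 and 20.5 CPM in heated N2 and 3.49, 3.99 and 3.1 CPM in unheated N2 (2.76 ± 0.20). srr-6 had 17.2, 13.9 and 15 CPM in heated N2 and 0.984, 0.376 and 1.43 CPM in unheated N2 (4.05 ± 0.30). str-146 fell (−1.79 ± 0.34).

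The strong rises and the falls were spread unevenly over the chromosomes. Chromosome V held 70 of the 152 rises beyond 8-fold (46.1%), against 20.2% of all genes tested, and chromosome X held 3. Of the 152 genes, 121 lay under 1 CPM in unheated N2. A gene so low was tested only where other libraries read it, so the counts of strong rises per chromosome are a description. On X, 436 of 2125 genes fell (20.5%) and 7.11% rose, with a median of −0.21, while on the other nuclear chromosomes the share that fell lay between 8.08 and 14.1%. Under scaling by library size alone 37.5% fell on X and at most 24.7% on the others. X also carries few germline genes and V many chemoreceptor and nuclear receptor genes, as background, and the part of such classes was not tested.

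**Figure D5:**
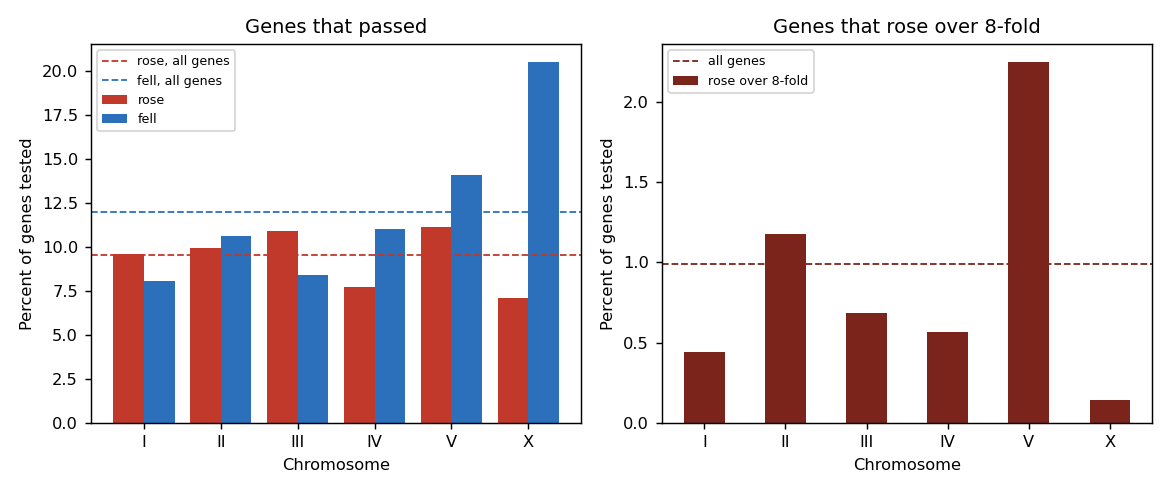
Left, bars give the percent of tested genes on each nuclear chromosome that rose or fell in heated N2; right, the percent that rose beyond 8-fold; dashed lines give the shares over all genes tested. The share that fell is highest on X at 20.5%, and the share beyond 8-fold is highest on V at 2.25%. Genes almost without reads in unheated N2 were tested only where other libraries read them, so the right panel is a description.

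The 152 strongest genes had 66 neighbours within 2000 bases downstream on the same strand, of which 41 were tested and 20 rose (48.8%, beside 9.52% of all genes). Of 42 neighbours whose starts face theirs, 30 were tested and 20 rose (66.7%), pairs of strong genes being counted from both sides. Leaving aside neighbours that themselves rose beyond 8-fold, 7 of 28 and 4 of 14 rose. A neighbour almost without reads in unheated N2 was tested only where other libraries read it, so these counts are a description. The pairs named here were chosen after their values were seen. They include scp-1 and ttll-12, 100 bases apart on one strand of chromosome II: scp-1, named for the sterol sensor that escorts the SREBP factor, had 818, 757 and 772 CPM in heated N2 and 51, 50.9 and 47.9 CPM in unheated N2 (3.97 ± 0.09). ttll-12, a tubulin tyrosine ligase-like gene, had 1201, 1227 and 1422 CPM in heated N2 and 93.7, 83.9 and 83.2 CPM in unheated N2 (3.88 ± 0.12). Other pairs were sri-39 with F33H12.7 (592 bases between starts), srw-71 with srw-78 (705 bases) and clec-196 with hsp-1, where clec-196 ends 1210 bases before hsp-1. The kit keeps no strand, so reads that run past a gene's end cannot be told apart from reads of the next gene, and their part in these rises was not tested.

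After unc-54, the gene outside the chaperones that gained most CPM was tos-1, at 3254, 4976 and 2800 CPM in heated N2 and 463, 723 and 490 CPM in unheated N2 (2.72 ± 0.24). The lowest heated library stood well above the highest unheated one. In the mitochondrial genome 3 of 11 tested genes fell, of which MTCE.25 had 153, 184 and 257 CPM in heated N2 and 381, 386 and 517 CPM in unheated N2 (−1.11 ± 0.21), and the other two were lost when any 1 of 4 libraries was left out. Nuclear genes of the respiratory chain rose in 2 of 50 cases (1 to 4 when any 1 library was left out, 5 in the blocked fit).

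The N2 response was set against that of affl-2(sy975) by an interaction term, coded as the log2 change in affl-2 less the log2 change in N2. Of 15386 genes 110 passed (0.715%), 103 below 0 (0.669%) and 7 above 0 (0.0455%), or 216 in all by DESeq2. Of the 302 tested genes selected by the naming rule 26 passed, all below 0, and all 26 rose in N2. The rule chose many of these genes by their N2 change, which the interaction subtracts, so the choice itself favours values below 0 for risen genes. The affl-2 mRNA itself stood at 17.6 ± 1.49 CPM in heated affl-2 and 26.9 ± 2.7 CPM in heated N2, and the mutated base was not read here. hsp-70 reached 110 ± 7.31 CPM in heated affl-2 and 2744 ± 283 CPM in heated N2 (interaction −3.49 ± 0.56, adjusted p = 0.0131). nurf-1 had 401 ± 36.1 CPM in heated affl-2 and 1679 ± 208 CPM in heated N2 (−1.74 ± 0.17), and gst-36 had 64.9 ± 12.4 CPM in heated affl-2 and 276 ± 22.9 CPM in heated N2 (−2.19 ± 0.19). hsp-16.11 had 783 ± 159 CPM in heated affl-2 and 2612 ± 279 CPM in heated N2 and did not pass (0.06 ± 1.00, adjusted p = 0.999), nor did any of the falls named above (SD, n = 3 each). Without unheated N2 replicate 3 its interaction was −1.55 (adjusted p = 0.387), that of hsp-16.2 was −2.81 (adjusted p = 0.0684, −1.27 with it), and that of F44E5.5 passed at −1.05 (adjusted p = 0.0486, −0.16 with it), so for these genes the value depends on that library.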

How the data were processed

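Poly(A) RNA of whole L4 animals was sequenced with an unstranded kit, per the labels' protocols. The submitters' processing notes name bcl2fastq 1.8.4, kallisto and build WBcel235. The authors deposited kallisto estimated counts and TPM per transcript for 12 libraries of 18.65 to 22.66 M counts in N2, each with 35862 transcripts. A gene's estimated count here is the rounded sum over its transcripts, which divides the reads of near-identical copies by an estimate. The deposited TPM served only for shares per length. Genes were named from Ensembl 115 (21842 matched, 168 not) and RefSeq.

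edgeR 4.0.16 (R 4.3.3, limma 3.58.1) fitted 4 group means to 12 libraries with TMM scaling, a minimum count of 10, a robust quasi-likelihood test and Benjamini-Hochberg adjustment at 0.05, leaving 15386 genes tested and 6624 set aside. The fit was tested on simulated data. TMM factors lay between 0.847 and 0.898 in heated N2 and between 0.987 and 1.004 in unheated N2. Alternatives were other scaling, filters, length offsets, N2 alone, a replicate block, a test beyond 2-fold, DESeq2 1.42.0, and leaving out each N2 library. Deviations from the group means correlated at 0.25, 0.27 and 0.32 between N2 libraries of the same replicate number. Between the others they correlated at −0.08 to −0.23. Deviations from a group mean push these below 0 on average once the same-number ones lie above 0, so they are no separate evidence. By the same-number correlations alone, libraries of the same number varied together, though the labels give only the numbers. The main fit did not use the replicate number, and the replicate block did.

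The named genes are the 15 highest and 15 lowest changes among genes that passed without overlap and averaged at least 1 log2 CPM, the 8 that gained and the 8 that lost most CPM, and up to 4 risen and 4 fallen genes per list by adjusted p. Every hsp-16 and HSP70 gene, hsf-1, affl-2 and the genes at the threshold were added, and tissue markers were fixed apart. The 56 gene lists, of which 16 names had no match, and the comparison itself were chosen with earlier results of these data known.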

Additional observations from a re-analysis of the deposited data

Results flagged for a closer look

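The heat shock effect in affl-2(sy975) minus that in N2 passed edgeR's interaction test (Benjamini-Hochberg) for 26 of the 302 tested genes named here, each below 0, so that each rose less in affl-2 or did not rise there. Many of the named genes were chosen by their change in N2, which favours interactions below 0 among risen genes. All values are on the log2 scale. The interaction was −3.49 for hsp-70, −1.67 for hsp-4, −1.2 for hsp-110, −1.01 for dnj-13, −0.78 for hsp-1 and −0.65 for hsp-6. Quality-control genes stood at −1.88 for sqst-1 and −1.57 for aip-1. Chromatin and histone genes stood at −1.74 for nurf-1, −1.50 for jmjd-3.3, −2.36 for his-38 and −1.51 for his-41. Detoxification genes stood at −2.19 for gst-36, −1.12 for gst-1, −1.23 for gst-20, −0.97 for gst-7, −2.13 for ugt-13, −1.28 for ugt-8 and −1.74 for cdr-4. Among genes near 0 reads without heat the values were −4.60 for dct-10, −3.01 for R11A5.3, −6.69 for Y38H6C.8 and −8.27 for sri-39, where the size depends on the prior count because unheated N2 had 0 reads. The remaining values were −3.63 for fil-2, −1.77 for spe-36 and −0.82 for lea-1. Leaving out 1 N2 library kept every direction, but 4 genes no longer passed. These were hsp-6 (−0.69 to −0.63, lost without any heated replicate or unheated replicate 3), jmjd-3.3 (−1.69 to −1.26, without any heated replicate), fil-2 (−3.94 to −3.3, without heated replicate 1 or 2 or unheated replicate 2) and ugt-8 (−1.53 to −1.2, without any library but unheated replicate 2).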

How the results depend on the processing

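Scaling by library size alone gave 911 higher and 3487 lower genes, and moved hsp-3 to −0.09 and T24H7.2 to −0.01. Neither gene passed in any scaling. The replicate block over N2 alone gave 2726 higher and 3042 lower, with the summed hsp-16 genes at 8.83; over all 12 libraries the block gave 1497 and 1957, with summed hsp-16 at 8.95. Sample descriptions and file labels exchange the numbers of unheated affl-2 replicates 1 and 2, so pairing there is unsure. A test beyond 2-fold gave 302 higher and 99 lower, since it asks for a larger change, and rises were then 75.3% of calls. DESeq2 called 216 interactions; the cause was not tested. The other settings kept the counts within 1.5-fold, from 1262 to 1723 higher and from 1724 to 2023 lower.

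Leaving out 1 N2 library gave 1042 to 1382 higher, 1248 to 1646 lower, 86 to 100 interactions and 7.83 to 9.90 for summed hsp-16. hsf-1 ranged from −0.16 to 0.01. Of 4500 comparisons over 302 named genes, 4176 kept direction and side of the threshold, 305 no longer passed, 16 newly passed and 3 reversed.

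Genes under 1 CPM without heat rest on a few reads in these libraries, so their fold changes are imprecise. Length offsets were not run for summed hsp-16, and N2 alone gives no interaction.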
